A study of Homo sapiens with 12 samples.

Results

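The regions described here are the stretches of open chromatin within the first 3 Mb of 17 human short chromosome arms, on chromosomes 1 to 12 and 16 to 20. Peaks of 6 ATAC-seq libraries were merged into regions wherever they overlapped by at least 1 base, which gave 84664 regions on the whole genome. Of these, 1026 started less than 3 Mb from the first base of the hg19 sequence on those arms, and their width ran from 138 to 1121 bases with a median of 268. The short arms of the acrocentric chromosomes were left out. For comparison, 8460 regions lay between 3 and 20 Mb of the same arms (to 15 Mb on chromosome 18, whose short arm is shorter).

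The libraries came from 2 human cell lines, 3 libraries of each, with 500000 cells per library. ARPE-19 is a line of retinal pigment epithelial cells and was grown in DMEM with fetal bovine serum. H7 cells are human embryonic stem cells and were grown in mTeSR Plus. No treatment or change of genotype is named in the labels, and each line stands for its cell type by itself, so a difference between the groups is a difference between these cultures in different media. The labels do not tell whether the 3 libraries of a line were made from separate cultures. The p-values therefore reflect the variation among 6 libraries, part of which may be technical. In ATAC-seq the Tn5 transposase cuts open chromatin and leaves sequencing adapters there, and a peak marks a stretch with more insertions than its surroundings. The series is about expression of TERT, the gene of the catalytic subunit of telomerase, and 6 of its samples measured chromatin contacts by 4C, which were not analysed here.

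The end of a chromosome is capped by the telomere, an array of short repeats bound by the shelterin proteins. Next to it lies the subtelomere, which holds blocks of sequence shared between chromosome ends, followed by single-copy DNA that on many arms is rich in genes. TERT itself is a subtelomeric gene of 5p, between CLPTM1L and the transporter gene SLC6A18 in the gene order of RefSeq on GRCh38. Telomerase is active in pluripotent stem cells and is silent in most somatic cells. Loops between a telomere and genes far inside the arm have been described in human cells, TERT among them. These points are background and were not measured in the peak lists. Peaks were not assigned to genes, since gene models of hg19 were not used here, so the labelled cell types could not be checked against marker genes, and no sequence of a region is given.

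Depth differed between the lines in the direction opposite to the number of peaks. The lists hold no read totals, but each list allows the background level of its library to be worked out, in reads per position. This level was 0.483, 0.458 and 0.425 for replicates 1, 2 and 3 of ARPE-19. For replicates 1, 2 and 3 of H7 the level was 0.653, 0.592 and 0.633. The lists held 44456, 40110 and 48460 peaks in ARPE-19 and 15351, 13707 and 8622 in H7. The part that depth and list length play in the results below was not tested beyond the shortened lists given beside them. Those shortened lists hold the 8622 peaks with the lowest p from every library, the length of the shortest list.

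Both lines had fewer peaks per Mb at the arm ends than farther inside, and H7 more so. In the first 3 Mb of the 17 arms, ARPE-19 replicates had 587, 466 and 604 peaks. The H7 replicates had 129, 119 and 67 peaks. The highest H7 library had fewer peaks than the lowest ARPE-19 library. The mean was 552 ± 75.2 (SD, n = 3) in ARPE-19 and 105 ± 33.3 (SD, n = 3) in H7, a ratio of 5.26, against 4.05 between 3 and 20 Mb of the same arms and 3.53 over the whole lists. On the log2 scale, H7 minus ARPE-19 was -2.44 (SE 0.32; exact two-sided permutation test over 20 assignments, p = 0.1, n = 3 per line). With 3 libraries against 3 the smallest possible p is 0.1, so none of the tests between lines could pass 0.05.

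Density at the ends was then set against density farther inside within each library. This ratio took other values in the shortened lists below, in which both the length of the list and the strength of the peaks kept had changed. The part of each cannot be told apart there. Peak density in the first 3 Mb was 70.5%, 61.7% and 67.7% of the density at 3 to 20 Mb in the ARPE-19 replicates. In the H7 replicates it was 52.3%, 53.7% and 46.5%. All 6 libraries were thus sparser at the ends, and the lines did not overlap. The mean relative density was 66.6% ± 4.48 (SD, n = 3) in ARPE-19 and 50.8% ± 3.82 (SD, n = 3) in H7. The difference of the log2 ratios was -0.39 (SE 0.085; exact two-sided permutation p = 0.1, n = 3 per line). The bases covered by peaks gave the same size of difference, -0.39 (SE 0.10; exact two-sided permutation p = 0.1, n = 3 per line).

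The lower relative density in H7 was not seen in the shortened lists of equal length. There the ARPE-19 replicates kept 79, 71 and 82 peaks in the first 3 Mb, and the H7 replicates kept 65, 69 and 67. The relative density was 46.4% ± 3.69 (SD, n = 3) in ARPE-19 and 48.6% ± 1.84 (SD, n = 3) in H7, with a log2 difference of 0.069 (SE 0.074; exact two-sided permutation p = 0.6, n = 3 per line). The ARPE-19 peaks that stayed had a -log10 p of at least 17.1, 15.7 and 18.9 in replicates 1, 2 and 3. For H7 these limits were 6.81, 6.53 and 4.31. The shortened lists therefore set the strongest ARPE-19 peaks beside much weaker H7 peaks, and the sparse arm ends were seen in both lines in either kind of list.

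With all peaks, the difference between the means of the lines in the first 3 Mb lay in the outer 2 Mb. In the outermost 0.5 Mb, ARPE-19 replicates had 80, 56 and 79 peaks and H7 replicates had 12, 10 and 11. These were 51.8% ± 6.67 (SD, n = 3) and 34.0% ± 10.3 (SD, n = 3) of the density at 3 to 20 Mb, the lowest mean of the 10 distance steps in each line. The libraries overlapped in this step, with H7 replicate 3 at 45.8% and ARPE-19 replicate 2 at 44.5%. Between 0.5 and 1 Mb the counts were 116, 100 and 122 in ARPE-19 against 20, 19 and 13 in H7. Relative density in that step was 81.7% ± 2.08 (SD, n = 3) in ARPE-19 and 51.4% ± 2.76 (SD, n = 3) in H7, and the libraries did not overlap (log2 difference -0.67, SE 0.050). ARPE-19 thus had its highest density below 3 Mb in a step where H7 stood at close to its own mean for the whole 3 Mb.

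The means of the lines came together beyond 2 Mb. Between 1 and 1.5 Mb the peaks numbered 101, 84 and 105 in ARPE-19 and 25, 16 and 7 in H7, with a log2 difference of relative density of -0.72 (SE 0.31). Between 1.5 and 2 Mb they numbered 96, 77 and 106 against 13, 20 and 11, with a difference of -0.65 (SE 0.24). In both steps every H7 library lay below every ARPE-19 library. Between 2 and 2.5 Mb the relative density was 67.1% ± 3.23 (SD, n = 3) in ARPE-19 and 68.9% ± 20.5 (SD, n = 3) in H7. Between 2.5 and 3 Mb it was 62.0% ± 7.56 (SD, n = 3) and 62.4% ± 6.99 (SD, n = 3). The differences in these inner steps, -0.0095 (SE 0.28) and 0.011 (SE 0.14), were smaller than the spread between libraries. Single H7 libraries weigh on these values: without H7 replicate 3 the difference was -0.45 at 1 to 1.5 Mb and 0.26 at 2 to 2.5 Mb, the latter with H7 higher and no overlap. Without H7 replicate 1 it was -0.43 at 1.5 to 2 Mb. Among peaks with a minimum -log10 q of 5, the libraries at 1.5 to 2 Mb overlapped (-0.87).

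Of the 6 steps below 3 Mb, 3 had H7 below ARPE-19 with no overlap of libraries. Of all 10 steps up to 20 Mb, with those 3 included, the share was 40.0%. The one further step with H7 lower was 10 to 15 Mb, with a difference of -0.13, and H7 was higher with no overlap in 10.0% of the steps, which is 15 to 20 Mb with 0.13. Adjusted over the 10 steps by Benjamini-Hochberg, the lowest p of the exact permutation tests was 0.2. Over the first 2 Mb alone the relative density was 67.7% ± 4.14 (SD, n = 3) in ARPE-19 and 43.4% ± 0.78 (SD, n = 3) in H7, a log2 difference of -0.64 (SE 0.054; exact two-sided permutation p = 0.1, n = 3 per line). In lists of equal length, an alternative added after the data had been seen, the difference over the first 2 Mb was -0.15 (SE 0.086; exact permutation p = 0.3, n = 3 per line). There 0 of the 6 steps below 3 Mb had H7 lower with no overlap.

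**Figure D1:**
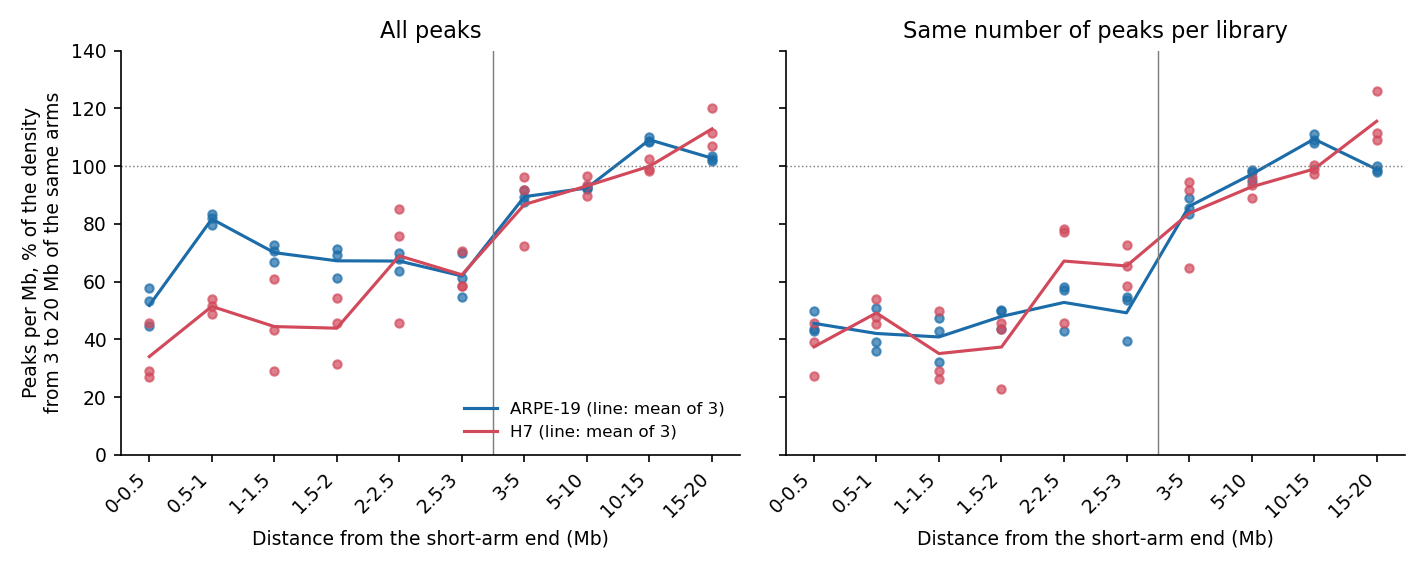
Peak density by distance from the arm end, as a percentage of the density at 3 to 20 Mb of the same 17 arms. Points are libraries and lines are means of the 3 libraries of each line, for all peaks and for lists of equal length. With all peaks, in the steps up to 2 Mb, the H7 means lie at 34.0% to 51.4%. The ARPE-19 means lie there at 51.8% to 81.7%, and between 2 and 3 Mb the means meet.

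The 17 terminal windows were also read against all windows of 3 Mb on the autosomes that held at least 20 peaks. The H7 share of its list was lower than that of ARPE-19 with no overlap of libraries in 35.4% of 905 windows, and higher in 27.0%. Among the 17 terminal windows it was lower in 11 and higher in 1, on 3p. In lists of equal length it was lower in 5 and higher in 4. The shares over all 905 windows are for all peaks, and none is given here for lists of equal length. Among 100 later windows of the same arms it was lower in 42 and higher in 20. The median log2 ratio of the shares, H7 over ARPE-19, was -0.59 in the terminal windows, -0.27 in the later windows of the same arms and -0.091 over all windows. With all peaks, at the median, the later windows of these arms thus also held a smaller share of the H7 lists than of the ARPE-19 lists, and the terminal windows stood lower still.

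The arms did not all differ in the same direction. The number of regions per arm ran from 38 on 11p to 95 on 9p. With 0.5 peaks added to each count, relative density per arm was below 0 on the log2 scale in the mean of ARPE-19 on 14 of 17 arms and in the mean of H7 on 16. H7 minus ARPE-19 was negative on 11 arms and positive on 6, with a median of -0.39. The H7 libraries lay below all ARPE-19 libraries on 7 of the 17 arms (41.2%) and above them on 3 (17.6%). No share of this ratio over other parts of the genome is given here, so these counts have no background beside them. The lower arms were 2p, 5p, 7p, 9p, 12p, 17p and 19p, and the higher arms were 1p, 3p and 16p. Without H7 replicate 3, the library with the shortest list, 5 arms were higher and 9 lower. The arms share the same 6 libraries and are not separate trials, and after adjustment over the 17 arms the p of the exact permutation tests lay between 0.17 and 0.4.

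**Figure D2:**
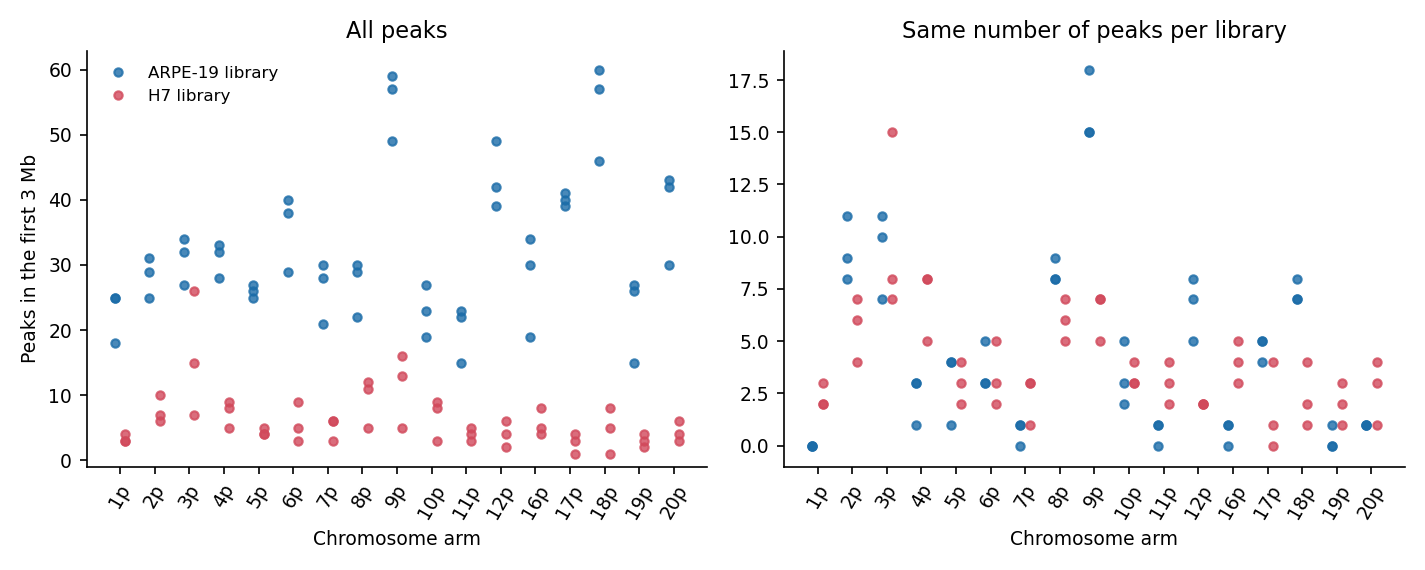
Number of peaks in the first 3 Mb of each of the 17 short arms, with 1 point per library, for all peaks (left) and for lists of equal length (right). With all peaks, ARPE-19 ranges from 15 peaks on 11p and 19p to 60 on 18p, and H7 from 1 on 17p and 18p to 26 on 3p.

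The end of 9p held the most regions. ARPE-19 replicates had 57, 49 and 59 peaks there and H7 replicates had 16, 13 and 5. Relative density of ARPE-19 was 0.14, 0.01 and 0.10 on the log2 scale, so this end was as dense as the inner part of its arm. In H7 it was -0.60, -0.69 and -1.18. The difference was -0.90 (SE 0.18; exact two-sided permutation p = 0.1, n = 3 per line). Among the steps of 0.5 Mb within the first 3 Mb of the 17 arms, 9p at 0.5 to 1 Mb held the most regions, 32. Of these, 12 were called in all 3 ARPE-19 and no H7 library. That class made up 25.0% of the regions at 0.5 to 1 Mb on the 17 arms and 26.0% of all merged regions. The step was picked for its high number of regions, so its counts are a description. It held 18, 23 and 22 peaks in ARPE-19 and 4, 3 and 2 in H7. The end of 9p kept its direction in lists of equal length, with 15, 15 and 18 ARPE-19 peaks against 7, 7 and 5 in H7 and a difference of -1.63 (SE 0.12).

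The lowest difference was on 17p. ARPE-19 replicates had 41, 39 and 40 peaks there. H7 replicates had 3, 1 and 4. The difference of relative density was -1.22 (SE 0.65; exact two-sided permutation p = 0.1, n = 3 per line) and rests on few H7 peaks. It was -0.62 without H7 replicate 2, and the libraries overlapped at a minimum -log10 q of 5 (-1.18) and in lists of equal length (-0.98). On 7p it was -1.06 (SE 0.22), from 28, 21 and 30 peaks in ARPE-19 and 6, 6 and 3 in H7. On 12p it was -1.0 (SE 0.28), from 42, 39 and 49 against 4, 6 and 2. Equal lists gave 0.89 on 7p and -0.58 on 12p, with libraries that overlapped. On 18p, where ARPE-19 had 57, 46 and 60 peaks and H7 had 5, 8 and 1, the difference of -0.89 (SE 0.64) came with libraries that overlapped. Leaving out H7 replicate 2 gave -1.34 and leaving out H7 replicate 3 gave -0.28 on 18p. The 18p ARPE-19 values of 0.17, 0.05 and 0.21 put that end above the density of its inner arm.

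The highest difference was on 16p, an arm whose terminal part is among the most gene-rich of the genome and holds the alpha-globin genes. ARPE-19 replicates had 30, 19 and 34 peaks there and H7 replicates had 8, 5 and 4. Relative density was -0.34, -0.82 and -0.27 in ARPE-19 and 0.57, 0.08 and 0.63 in H7. This was the single arm whose mean in H7 lay above the density of its inner part. The difference was 0.90 (SE 0.24; exact two-sided permutation p = 0.1, n = 3 per line). The end of 16p kept that direction, with 1, 1 and 0 ARPE-19 peaks against 3, 5 and 4 in H7 in lists of equal length.

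On 3p the H7 libraries stood apart from each other. They had 26, 15 and 7 peaks, against 32, 27 and 34 in ARPE-19. The difference was 0.70 (SE 0.32; exact two-sided permutation p = 0.1, n = 3 per line). It was 0.41 without H7 replicate 1, and the libraries overlapped at a minimum -log10 q of 5 (0.52) and in lists of equal length (0.082). The innermost step of 3p, 2.5 to 3 Mb, held 0 ARPE-19 peaks in each replicate and 5, 5 and 1 in H7. The same step of 8p also held 0 ARPE-19 peaks, with 3, 4 and 1 in H7. The opposite was seen on 6p between 1 and 1.5 Mb, with 11, 11 and 12 ARPE-19 peaks and 0 in every H7 replicate. These 3 stretches were chosen after their values had been seen.

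On 1p the peaks numbered 25, 18 and 25 in ARPE-19 and 4, 3 and 3 in H7, with a difference of 0.28. Its outermost region began 714 kb from the first base, farther in than on any other of the 17 arms. Lists of equal length held 0 ARPE-19 peaks in every replicate and 2, 2 and 3 H7 peaks on 1p. On 2p the peaks numbered 31, 25 and 29 against 10, 7 and 6, with a difference of -0.27, and on 19p they numbered 26, 15 and 27 against 3, 4 and 2, with -0.71 (SE 0.21). At a minimum -log10 q of 5 the libraries overlapped on both arms, with -0.057 on 2p and 0.50 on 19p. The differences were -0.82 on 20p, -0.39 on 6p and -0.35 on 11p, and they were 0.33 on 8p, 0.37 on 10p and 0.42 on 4p. On those 6 arms the libraries of the lines overlapped. In lists of equal length 2 arms had H7 lower with no overlap, 2p and 9p, and 5 had it higher, 1p, 4p, 11p, 16p and 20p, with a median difference of 0.45 over the 17 arms. The differences on 11p and 20p were thus negative with all peaks and positive, at 1.72 and 1.59, with equal lists.

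**Figure D3:**
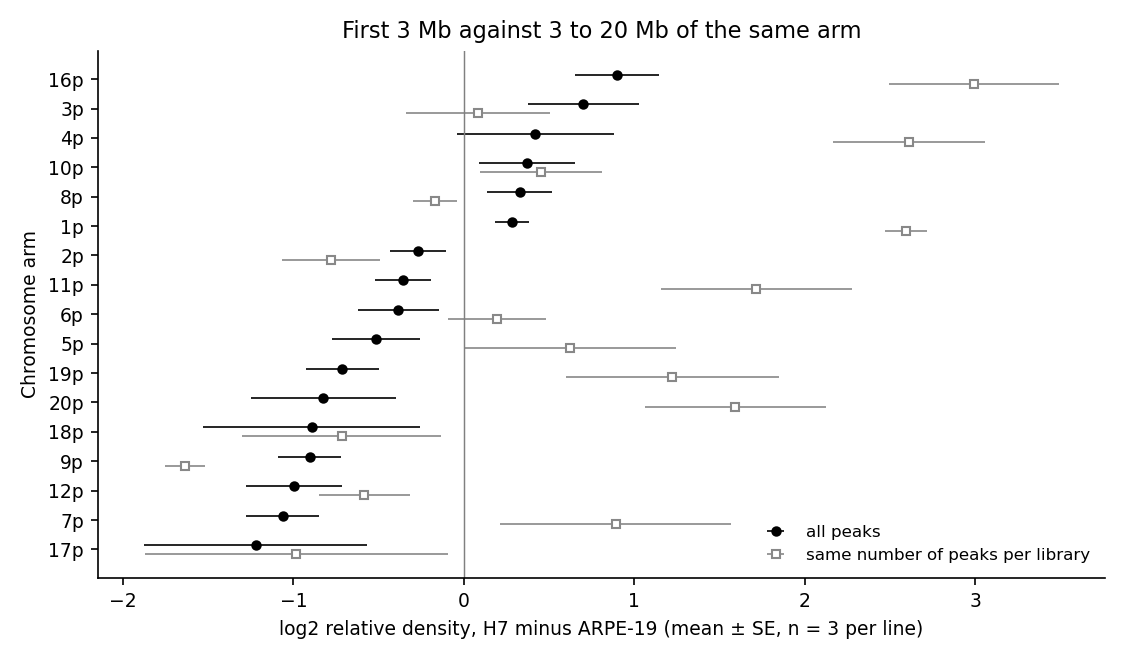
Difference between the lines in log2 relative density (H7 minus ARPE-19) for each of the 17 arms, with all peaks and with lists of equal length; bars are standard errors over 3 libraries per line. 9p is negative and 16p positive in both kinds of list, while 5p, 6p, 7p, 11p, 19p and 20p are negative with all peaks and positive in the lists of equal length.

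On 5p, the arm of TERT, the first 3 Mb held 50 regions. ARPE-19 replicates had 26, 25 and 27 peaks there and H7 replicates had 4, 5 and 4. The difference in peak number was -2.59 on the log2 scale (SE 0.11; exact two-sided permutation p = 0.1, n = 3 per line), close to the -2.44 of the 17 arms together. The relative density was -0.87, -0.82 and -0.80 in ARPE-19 and -1.83, -1.24 and -0.96 in H7, a difference of -0.51 (SE 0.26; exact two-sided permutation p = 0.1, n = 3 per line). Without H7 replicate 1 it was -0.27. Among peaks with a minimum -log10 q of 5 it was -0.044 (exact permutation p = 0.9), and with 1 threshold on p for all libraries it was -0.42 (exact permutation p = 0.2). In lists of equal length these differences were 0.19 and 0.63. The regions of 5p ended early, with 3 between 2 and 2.5 Mb, none between 2.5 and 3 Mb, and an interval of 629 kb with no peak in any library from 2472809 to 3101626. This interval is longer than the gap on all but 1 of the other arms.

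Of the 50 regions of 5p, 12 were called in all 3 ARPE-19 and no H7 library, 0 in all 3 H7 and no ARPE-19 library, and 0 in all 6. The 12 of 50 are near the 26.0% of all merged regions in that class, and the other classes hold 1.82% of all merged regions each, so that counts of 0 in 50 say little. H7 peaks lay in 12 of the 50 regions, and 2 of these were shared with ARPE-19. Of all merged regions, 30.8% had an H7 peak and 8.51% had peaks of both lines. Counts as small as 12 and 2 say little about sharing on this arm. The region chr5:271318-271822 had 13, 15 and 18 reads at the summit in ARPE-19 and 8 and 11 in H7 replicates 1 and 2. The region chr5:1385853-1386330 had 15, 11 and 18 reads in ARPE-19 and 6 in H7 replicate 1. The former is the single region of 5p called in more than 1 H7 library.

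The other 10 H7 regions of 5p were each called in 1 library. Within 150 kb of 1.3 Mb, where TERT lies, these were chr5:1228957-1229278 with 19 summit reads in replicate 2, chr5:1229814-1229990 with 9 in replicate 2, and chr5:1295146-1295600 with 16 in replicate 1. No H7 region in that interval was therefore seen in a second H7 library. ARPE-19 had chr5:1345145-1345352 in all 3 replicates, with 11, 10 and 11 reads. It had chr5:1194788-1195048 in replicates 2 and 3 with 6 reads each, and chr5:1327532-1327920 in replicates 1 and 3 with 6 and 8. Another 3 ARPE-19 regions in that interval, at 1162090, 1332570 and 1332875, were each called in 1 replicate with 6 to 7 reads. The outermost regions of 5p were weak or unshared, with chr5:91949-92257 in H7 replicate 3 alone at 13 reads and chr5:188631-188974 in ARPE-19 replicates 2 and 3 at 7 and 10 reads.

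An ARPE-19 peak lay in 84.5% of the regions at the arm ends, against 77.8% of all merged regions, and an H7 peak in 23.1% against 30.8%. In lists of equal length, 48.1% of 241 regions had an ARPE-19 peak and 59.8% had an H7 peak. These are near the 46.7% and 61.2% of all regions in those lists. Which line supplied more regions thus differed between the full and the shortened lists, at the ends as over all regions. Of the 1026 regions, 256 were called in all 3 ARPE-19 and no H7 library, which is 25.0% against 26.0% of all merged regions. Another 6 were called in all 3 H7 and no ARPE-19 library, which is 0.585% against 1.82% of all merged regions. In all 6 libraries 10 were called, which is 0.975% against 1.82%. Between 3 and 20 Mb of the same arms these shares were 27.8%, 1.48% and 1.55%. The ARPE-19-only share was thus near its background, while the H7-only and shared classes rest on very few regions. Asking for fewer H7 libraries adds to these classes. Without H7 replicates 1, 2 and 3 the H7-only regions were 10, 11 and 19, and without replicate 1 the regions in all libraries were 20. Shares over all regions with a library left out are not given here. Regions called in a single library made up 511, or 49.8%, against 46.4% of all regions. Both lines had a peak in 78 regions, or 7.60% against 8.51% of all regions.

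Regions called in every H7 library were a larger share of those beyond 2 Mb than of those nearer the end, a description with a limit chosen after the steps had been seen. There were 18 of them, 7 of the 684 regions within 2 Mb of the end (1.02%) and 11 of the 342 regions between 2 and 3 Mb (3.22%). Between 3 and 20 Mb the share was 3.31%, and over all merged regions it was 4.02%. The contrast within the first 3 Mb rests on few regions. Regions called in all 3 ARPE-19 libraries numbered 307. They were 30.3% of the regions within 2 Mb and 29.2% of those between 2 and 3 Mb, against 31.5% of all merged regions. Of the 10 regions in all 6 libraries, 2 lay within 2 Mb and 8 between 2 and 3 Mb. Of the 18 regions in every H7 library, 12 also had an ARPE-19 peak (66.7%, against 54.8% over all regions). Of the 307 in every ARPE-19 library, 51 had an H7 peak (16.6%, against 17.3% over all regions).

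**Figure D4:**
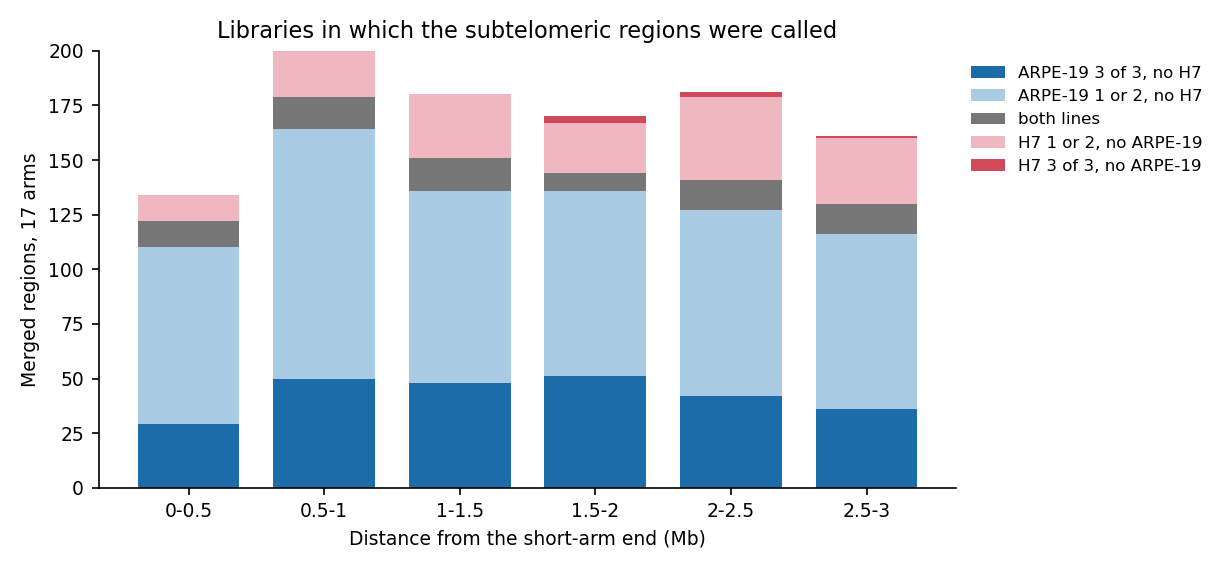
Number of merged regions on the 17 arms by distance from the arm end in steps of 0.5 Mb, stacked by the libraries in which they were called. The steps hold between 134 regions (0 to 0.5 Mb) and 200 regions (0.5 to 1 Mb), with all peaks those of ARPE-19 without H7 make up most of each bar, and the 6 H7-only regions all lie beyond 1.5 Mb.

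The 6 regions called in H7 alone lay on 3 arms, and 3 of them on 8p. Reads at the summit were 21, 26 and 21 in H7 replicates 1, 2 and 3 at chr8:1606193-1606629. They were 19, 27 and 21 at chr8:2263062-2263480. Their mean percentiles of -log10 q within the H7 lists were 97.8 and 97.5, and no ARPE-19 library had a peak in them. On 10p, chr10:2519402-2519651 had 18, 9 and 12 reads. The remaining 3 were weaker: chr2:1629121-1629449 had 9, 11 and 13 reads, chr8:2104143-2104659 had 6, 10 and 9, and chr10:1817058-1817470 had 6, 7 and 10. None of the 6 lay within 1.5 Mb of the end.

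The strongest regions called in ARPE-19 alone reached higher read numbers. At chr2:2275197-2275894 the ARPE-19 replicates had 62, 51 and 64 reads at the summit, over a local background 6.05 to 7.72 times that of the library. At chr12:2722780-2723382 they had 42, 44 and 48 reads, and at chr3:1225147-1225687 they had 37, 49 and 53. At chr2:1679258-1679755 they had 56, 36 and 41 reads, and at chr9:2655367-2655936 they had 40, 31 and 31. At the regions other than chr2:2275197-2275894 the local background was 3.14 to 4.95 times that of the library. In each of these 5 regions all ARPE-19 replicates lay above the highest summit of any H7 peak in the first 3 Mb, which was 27 reads. The 5 were picked for their high rank within the ARPE-19 lists, and the reads were not adjusted for depth.

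Regions called in all 6 libraries were led by chr9:2843992-2844425. It had 32, 23 and 27 reads in ARPE-19 and 20, 17 and 13 in H7. At chr12:2921604-2922180 the reads were 24, 18 and 24 against 13, 17 and 9. The ARPE-19 libraries were above the H7 libraries in both. The genome-wide background was higher in H7, but the local background was a larger multiple of it in ARPE-19. At the region on chromosome 9 it was 2.80 to 3.93 times in ARPE-19 and 1.89 to 2.09 times in H7. At the region on chromosome 12 it was 2.98 to 3.97 times in ARPE-19 and 1.82 to 2.09 times in H7. At chr17:2952091-2952504 the reads were 19, 25 and 16 against 9, 7 and 11. At chr7:2883682-2884336 they were 14, 20 and 26 against 11, 11 and 13, and at chr11:2421470-2422045 they were 25, 16 and 24 against 13, 13 and 10. The 2 shared regions nearest to an end were on 3p and 4p. The one on 3p, chr3:577412-578183, had 13, 16 and 13 reads against 23, 11 and 7, so that the lines overlapped.

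The outermost peaks lay at different distances on each arm. The outermost region of any library began 29.5 kb from the first base on 2p at the nearest, 104 kb at the median of the arms and 714 kb on 1p at the farthest. The outermost ARPE-19 peak had a median distance of 153 kb. The outermost H7 peak lay at 90.8 kb at the nearest, 251 kb at the median and 955 kb at the farthest. On 3 arms, 3p, 5p and 20p, an H7 peak lay outside all ARPE-19 peaks. ARPE-19 had 5.26 times as many peaks as H7 in the first 3 Mb, and the distances were not adjusted for that. The distances start from base 1 of hg19, where most arms begin with unsequenced stretches that were not subtracted, so they are not distances from the telomere.

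Outermost regions called in at least 2 libraries were mostly those of ARPE-19. Of all merged regions, those called in 1 library included, 77.8% had an ARPE-19 peak and 30.8% an H7 peak. The part that the longer ARPE-19 lists play in this was not tested. The outermost region nearest to an end was chr2:46875-47514, with 22, 23 and 31 summit reads in ARPE-19 and no H7 peak. On 18p, chr18:108161-108475 had 27 and 35 reads in ARPE-19 replicates 1 and 2 and 17 in H7 replicate 2. On 8p, chr8:224230-224782 had 34, 25 and 32 reads in ARPE-19 alone. On 6p, chr6:408805-409071 was the single one of these 17 regions called in H7 alone, with 8 and 6 reads in replicates 2 and 3. The farthest was chr1:954812-955249 with 8 reads in each ARPE-19 replicate and 7 in H7 replicate 2. The longest interval with no peak in any library ran from 176 kb on 3p to 651 kb on 8p, with a median of 320 kb over the arms.

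Peaks at the arm ends were slightly weaker than those farther inside in ARPE-19. The median fold enrichment, the authors' value for the reads at a summit over the local background, was 6.13, 5.99 and 6.13 in the first 3 Mb. At 3 to 20 Mb it was 6.56, 6.41 and 6.70. In H7 the medians were 4.97, 5.06 and 5.51 at the ends and 5.05, 5.16 and 5.47 inside. The log2 ratio of the end to the inner part was -0.11 in the mean of ARPE-19 and -0.013 in H7. The lines differed by 0.095 (SE 0.016; exact two-sided permutation p = 0.1, n = 3 per line), with every H7 library above every ARPE-19 library. With equal lists that difference was -0.020.

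The median width was 249 ± 13.5 bases (SD, n = 3) at the ends and 272 ± 8.08 bases (SD, n = 3) inside in ARPE-19. In H7 it was 217 ± 10.7 bases (SD, n = 3) and 223 ± 2.52 bases (SD, n = 3). The difference between the lines in the log2 ratio of widths was 0.085 (SE 0.041; exact two-sided permutation p = 0.2, n = 3 per line), and the libraries overlapped. Summit reads had a median of 10 at the ends and 11 inside in each ARPE-19 library, and of 9, 9 and 10 in both places in H7.

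In ARPE-19 the arm ends were sparser for stronger peaks. Peaks with a -log10 p under 10 had a density at the ends of 81.1%, 71.6% and 81.7% of that inside in the ARPE-19 replicates. Between 10 and 20 it was 63.2%, 53.3% and 59.1%, and from 20 upwards it was 52.5%, 45.8% and 46.9%. Each ARPE-19 library followed that order. In H7 the weakest class gave 58.4%, 57.2% and 46.6% and the middle class 33.1%, 39.8% and 48.3%. The strongest class held only 1, 2 and 0 H7 peaks at the ends. Among the weakest peaks every H7 library was thus below every ARPE-19 library, and so it was for the middle class.

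**Figure D5:**
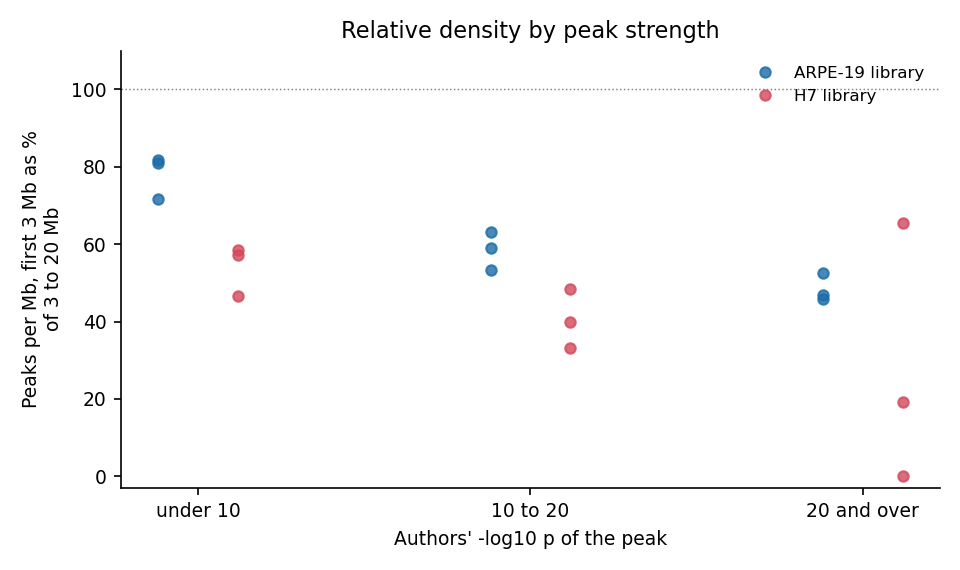
Peak density in the first 3 Mb as a percentage of that at 3 to 20 Mb, by class of -log10 p within each library. Points are libraries; ARPE-19 runs from between 71.6% and 81.7% in the weakest class to between 45.8% and 52.5% in the strongest, where H7 has 1, 2 and 0 peaks.

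The local background of a peak comes from the reads around it. It was 1.76 ± 0.099 (SD, n = 3) times the genome-wide background at the median end peak in ARPE-19 and 1.79 times inside. In H7 it was 1.48 ± 0.039 (SD, n = 3) times at the ends and 1.5 times inside. Within each line the ends and the inner parts differed by less than the spread between libraries. Peaks over more than 5 times the background numbered 11, 4 and 13 in the ARPE-19 replicates and 0 in the H7 replicates, and none of them lay in the outermost 0.5 Mb.

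Agreement between replicates was lower at the ends than inside. A peak of an ARPE-19 library was overlapped by one of another ARPE-19 library in 66.5% of cases at the ends, against 71.2% inside. For H7 libraries it was 31.6% against 39.2%. Between lines, 34.5% of H7 peaks at the ends were overlapped in an ARPE-19 library. The other way, 6.19% of the peaks of ARPE-19 were overlapped in an H7 library. Inside, these shares were 30.7% and 7.36%. Overlap depends on the length of both lists. With lists of equal length, 12.3% of H7 peaks at the ends were overlapped in an ARPE-19 library and 33.3% in another H7 library. The shares were 10.6% for ARPE-19 peaks in an H7 library and 65.6% in another ARPE-19 library. No test was made of these shares.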

How the data were processed

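ATAC-seq peaks were called for each library and not on pooled samples. The submitters' processing notes name hg19, MACS2 and bedtools without versions. Not given in the sources used here were the aligner, the handling of duplicates and of mitochondrial reads, and whether read ends were shifted to the Tn5 cut.

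Each deposited peak carries a score, a summit fold enrichment, a -log10 p and a -log10 q, all from the authors' peak caller. The fold is a ratio within 1 library, of summit reads to the background around the peak. These values were used to rank or filter peaks within a list. Summit reads and background were also recovered from the fold and the -log10 p, taking the fold as summit reads plus 1 over background plus 1 and p as a Poisson tail. For 100% of the peaks in the members, the recovered values returned the deposited -log10 p to within 0.001. The reads are pileup heights that may include duplicates, and they are subject to counting error.

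Peaks of all libraries were merged by an overlap of at least 1 base. The members, classes and windows were chosen with earlier results of these data known. Relative density is the log2 ratio of peaks per Mb in the first 3 Mb to those at 3 to 20 Mb. Windows are nominal, 51 Mb and 284 Mb in all, and assembly gaps were not subtracted. Values per library were compared between lines over all 20 assignments of libraries (exact permutation, two-sided), with Benjamini-Hochberg adjustment over arms or steps. Regions named are, in each class, the 5 with the highest mean percentile of -log10 q, the outermost region of each arm in at least 2 libraries, the regions of 5p with H7 peaks or within 150 kb of 1.3 Mb, and the arms with the highest and lowest difference. Others were named after their values had been seen.

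Alternatives tried were a minimum -log10 q of 5, the 8622 peaks of lowest p from each library, other windows, other definitions of the classes, a 50% overlap, the replicate number as a block and each library left out in turn. One p threshold for all libraries, and the first 2 Mb with lists of equal length, were added after the data had been seen. Same-numbered libraries of the lines had correlations of -0.042, 0.00064 and 0.19 of their deviations over 905 windows, so the numbers do not pair them. The steps were tested on simulated data. Software was Python 3.11.15 with scipy 1.17.1, numpy 2.4.6, matplotlib 3.10.9 and pandas 2.3.3.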

Additional observations from a re-analysis of the deposited data

Results flagged for a closer look

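On 9p and 16p the means of the lines lay on opposite sides of the density of the inner arm. This was not particular to them. It also held on 17p (log2 means of 0.040 in ARPE-19 and -1.18 in H7) and on 18p (0.15 and -0.75). These values have 0.5 peaks added to each count. On 9p every H7 library was below the inner density, with a difference of -0.90 in log2 relative density. ARPE-19 replicates 1 and 3 were above it and replicate 2 was level with it, at 0.01. On 16p every ARPE-19 library was below the inner density, with a difference of 0.90. H7 replicates 1 and 3 were above it and replicate 2 was near it, at 0.08. Without the added 0.5, ARPE-19 replicate 2 on 9p and H7 replicate 2 on 16p fall just below the inner density. On 9p and on 16p the exact permutation test of the difference gave p = 0.1, the smallest possible with 3 libraries of each line.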

How the results depend on the processing

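Relative density of the arm ends was lower in H7 in 18 of 19 alternatives, with log2 differences from -0.64 to 0.069. One of the 18, the replicate number as a block, cannot change the value. The alternatives reuse the same 6 libraries, so the count of 18 is not a count of separate trials. With lists of equal length the lines overlapped, both over 3 Mb (0.069, the exception in direction) and over 2 Mb (-0.15, exact permutation p = 0.3). With single libraries left out it was -0.44 to -0.33. In lists of equal length the median fold gave -0.020, peak number on 5p 0.19, relative density 0.63 on 5p, 0.89 on 7p and 1.22 on 19p, and 0.24 at 0.5 to 1 Mb. Those lists left 0 steps and 2 arms lower, 5 arms higher, and overlaps of 10.6% (ARPE-19 in H7) and 12.3% (H7 in ARPE-19). They left 30 ARPE-19-only regions, which is 12.4% of the regions at the ends against 14.7% of all regions in those lists. The 6 H7-only regions were 2.49% against 6.74%, and the 1 region in all 6 libraries was 0.415% against 2.02%. With a -log10 q of at least 5, 4 arms were lower, H7-only regions were 2, regions in all 6 libraries 1, the overlap of ARPE-19 in H7 3.48%, and 19p stood at 0.50. Calls in at least 2 of 3 libraries gave 408 ARPE-19-only and 29 H7-only regions. With peaks covering at least 50% of a region, 1 region was in all 6 libraries. Shares over all regions are not given here for the limit on q, for calls in at least 2 of 3 libraries or for the 50% cover. Those counts of regions therefore have no background beside them. An overlap of 50% of both peaks gave 53.7% within ARPE-19, 4.09% for ARPE-19 in H7 and 22.2% for H7 in ARPE-19. The cause of these shifts was not tested.

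When single libraries were left out, H7-only regions numbered 6 to 19, with 10, 11 and 19 without H7 replicates 1, 2 and 3. The shares over all regions in these settings are not given here. Regions in all remaining libraries numbered 10 to 20, with 20 without H7 replicate 1, and arms with H7 higher numbered 3 to 5, with 5 without H7 replicate 3. On 5p the relative density ranged from -0.71 to -0.27 and the peak number from -2.70 to -2.54. The replicate number as a block left the values as they were (-2.44, -0.39, 0.095, 0.085, -2.59 and -0.51) with an exact permutation p of 0.25, the smallest possible over 8 assignments.

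With 3 libraries per line, the smallest p is 0.1. Within the first 3 Mb, no peak had under 4 summit reads in any ARPE-19 library. In H7 replicates 1, 2 and 3 the smallest numbers there were 5, 5 and 6. Openings with fewer reads are therefore not in the lists of these windows. Whether depth played a part in which openings were called was not tested. Several arms hold under 5 H7 peaks per library.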
